A study of Mus musculus with 6 samples.

Results

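ATP-binding cassette (ABC) transporter genes were examined in LSK cells, the lineage-negative, Sca-1+, c-Kit+ bone marrow fraction that holds blood stem cells and early progenitors. Members were taken by name, as every symbol made of Abc, a subfamily letter from a to g, a number and, where present, a final letter, which gave 50 of the 24063 symbols in the files. The data are 3 libraries from Asxl2-/- and 3 from wild type C57BL/6 mice. The titles place all 6 on an Mx1-cre background, and all mice received pIpC, a synthetic double-stranded RNA that switches on the interferon-responsive Mx1 promoter and with it the Cre recombinase. Cre in this system is therefore not limited to blood cells, and the control cells carry the same transgene and the same interferon stimulus. According to the results text of the study the cells were taken about a month after the injection, and no age is given in the sources used here. The comparison asks which members of the family differ in transcript abundance when Asxl2, a chromatin regulator of the Polycomb-associated ASXL family, is lost.

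ABC proteins use the binding and hydrolysis of ATP to move molecules across membranes, and each nucleotide-binding domain carries a short conserved stretch called the ABC signature. Full transporters have a pair of such domains in 1 chain, others have 1 and act as dimers, and the members of subfamilies e and f lack membrane-spanning parts and work on ribosomes. In blood stem cells the family is known for dye efflux. Abcg2 pumps the dye Hoechst and so defines the dye-low side population, whereas Abcb1a and Abcb1b, the mouse genes for P-glycoprotein, pump rhodamine 123 and many drugs.

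Abcb1a, Abcb1b and Abcb4 are neighbours on chromosome 5, and their sequences set how far their counts can be separated. The stretch around the first ABC signature is shown for the 3 genes, 5′ to 3′ on the coding strand, with the 15 bases that code for the signature in capitals. The sequences are from GENCODE M1 transcripts, and the stretch lies in exon 14 of each gene, which the files place on mm10 at chr5:8702793-8702963 for Abcb1a, chr5:8825113-8825283 for Abcb1b and chr5:8928407-8928577 for Abcb4.
Abcb1a: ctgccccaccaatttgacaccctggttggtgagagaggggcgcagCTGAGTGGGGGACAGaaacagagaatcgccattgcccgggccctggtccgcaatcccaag
Abcb1b: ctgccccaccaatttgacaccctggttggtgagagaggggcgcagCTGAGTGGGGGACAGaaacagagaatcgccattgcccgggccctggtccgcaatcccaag
Abcb4: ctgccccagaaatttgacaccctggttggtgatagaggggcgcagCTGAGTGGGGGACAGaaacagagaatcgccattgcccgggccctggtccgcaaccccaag
Abcb1a and Abcb1b are identical over these 105 bases, within an identical run of 338 bases, and Abcb4 differs at 4 of them. Over the whole coding sequence Abcb1a and Abcb1b are 87.7% identical, against 75.2% for Abcb1a and Abcb4 and 73.7% for Abcb1b and Abcb4. Of the 50-base words in the transcript, 17.0% for Abcb1a and 18.1% for Abcb1b also occur in another gene, so their counts are uncertain over those parts. In contrast, 42 of the 50 members shared under 1% of their words with any other gene and 38 shared none.

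For Abcg2 the annotation lists several start sites, and the exon counts described further on bear on them. The 250 bases before each of 3 start sites in RefSeq's GRCm38.p6 annotation are printed on the plus strand, from chr6:58584283-58584532, chr6:58596422-58596671 and chr6:58640296-58640545. Capitals mark matches on either strand to TGTGGT, the core of the RUNX motif, and to GGGCGG, the GC box.
Abcg2 start 58584533: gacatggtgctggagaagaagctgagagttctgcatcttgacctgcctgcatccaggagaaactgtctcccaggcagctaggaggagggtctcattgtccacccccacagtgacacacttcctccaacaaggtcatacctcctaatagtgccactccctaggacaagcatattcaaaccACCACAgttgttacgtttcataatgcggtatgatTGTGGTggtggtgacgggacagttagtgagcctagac
Abcg2 start 58596672: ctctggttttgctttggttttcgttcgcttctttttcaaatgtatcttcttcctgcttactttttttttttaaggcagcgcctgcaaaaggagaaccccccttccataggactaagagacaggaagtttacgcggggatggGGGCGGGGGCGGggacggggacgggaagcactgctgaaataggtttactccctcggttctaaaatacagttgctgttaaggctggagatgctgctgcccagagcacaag
Abcg2 start 58640546: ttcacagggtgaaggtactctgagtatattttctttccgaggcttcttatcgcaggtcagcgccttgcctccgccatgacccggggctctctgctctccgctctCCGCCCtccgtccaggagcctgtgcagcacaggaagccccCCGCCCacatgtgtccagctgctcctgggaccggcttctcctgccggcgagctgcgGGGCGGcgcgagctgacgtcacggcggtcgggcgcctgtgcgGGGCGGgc
The window before the first start held 2 RUNX cores and no GC box, the second held 2 GC boxes, and the third held 4 GC boxes with 67.6% G and C and 23 CpG pairs. No window held the AP-1 word TGANTCA, the ETS word CCGGAA, or the word TNGCGTG of the dioxin response element, on either strand. Among 32851 annotated promoters of the same length, 14.1% hold the RUNX core and 32.7% a GC box. These are matches of letters and no measurement of binding.

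Counts were deposited in 2 kinds of file. Asxl2-/- replicates 1 and 3 and control replicate 2 had 1 count per transcript (transcript-level files, 25528540 to 29136012 counts), and Asxl2-/- replicate 2 and control replicates 1 and 3 had 1 count per exon (exon-level files, 53147729 to 55032075 counts). A spliced read can count once in each exon it touches, so genotypes were tested with the kind of file as a term of the fit. Differences within each kind are given beside the test for some genes. Ranges and separations stated over all libraries of a genotype mix both kinds of file. In the exon-level files, Asxl2 exon 11 (chr12:3496225-3496936), the exon before the last, had 0.0393 counts per base in Asxl2-/- replicate 2 against 0.642 and 0.691 in the control libraries. Levels are given as CPM, counts scaled to a common library size. The sort markers Kit (280 to 431 CPM), Ly6a (40.5 to 260 CPM) and Ptprc (234 to 288 CPM) were present in every library. Xist had 49540 to 66689 counts in the Asxl2-/- libraries and 590 to 3194 in the controls, whereas 4 Y-linked genes had at most 2 counts in the former and at least 1026 in the latter, so sex and genotype cannot be told apart. Several marker lists for other cell types also moved with genotype. Summed B-lymphoid markers stood at 130 to 132 CPM in Asxl2-/- against 34.5 to 50.2 CPM in control libraries (5 of 6 past the test), stem cell markers at 263 to 320 against 105 to 200 CPM (2 of 6), and erythroid markers at 481 to 683 against 920 to 1335 CPM (0 of 7). Within each kind of file, the Asxl2-/- libraries were also above the controls in megakaryocyte sums (306 and 375 against 151 CPM in the transcript-level files, 835 against 221 and 358 CPM in the exon-level files, 3 of 6 past the test) and endothelial sums (65.8 and 86.6 against 27.5 CPM, and 101 against 45.4 and 68.8 CPM, 0 of 6 past the test). Stromal and macrophage sums overlapped in the exon-level files, and none of their genes passed the test. Neutrophil sums differed in direction between the kinds of file. They were 4348 and 2425 CPM in Asxl2-/- against 7760 CPM in the transcript-level files, and 6525 against 2512 and 4896 CPM in the exon-level files. Of the 6 neutrophil genes, 2 were raised, Ltf (log2 fold change 3.52, adjusted p = 0.0405 by edgeR) and Ngp (3.62, 0.0444). The other 4, Mpo, Elane, Ctsg and Prtn3, had negative fold changes (-0.29 to -0.00356) and did not pass. These marker genes were named after their values were seen, and no marker measured was at 0 in any library.

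Transcripts of most of the ABC family were detected in LSK cells, and their levels spanned a wide range. The members together took 0.254% to 0.310% of the counts of a library, and 26 of the 50 had over 100 counts in every library. In total 37 members passed the filter on low counts and were tested. Of the other 13, 6 (Abca12, Abca14, Abca15, Abcb5, Abcb11 and Abcc6) had no count in any library, which allows up to 0.106 CPM in the shallowest library when 3 counts are taken as the limit. The remaining 7 (Abca6, Abca8a, Abca16, Abcc8, Abcc12, Abcg5 and Abcg8) had at most 9 counts in a library. The untested members include Abcb11, the bile salt export pump of the liver, Abca12, the lipid transporter of the skin barrier, and Abcg5 and Abcg8, which together export sterols from gut and liver cells.

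Per length, the highest levels in control cells belonged to the ATPases of translation. Over the 3 control libraries, Abcf1 stood at 132 ± 31.1 CPM per kb (SD, n = 3), Abce1 at 123 ± 17.6 and Abcf2 at 84.1 ± 13.5. Abcb4, which moves phosphatidylcholine to the outer leaflet, followed at 56.2 ± 20.4 CPM per kb, and Abca2, a lipid transporter of late endosomes and lysosomes, at 34.0 ± 8.77. Abcf1 and Abce1 exchanged places between the transcript-level and exon-level control files and differed by less than their spread. Abcg2 ranked 9th at 25.6 ± 7.63 CPM per kb, between Abca3 (26.2 ± 5.46) and Abcc1 (23.3 ± 2.22), and these 3 neighbours differed by less than their spread. Abcg2 ranked 15th in the transcript-level control file and 8th in the exon-level control files. Abcb1b ranked 19th (9.82 ± 0.289), Abcb1a 31st (0.209 ± 0.0470) and Abcc3 34th (0.144 ± 0.0382).

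**Figure D1:**
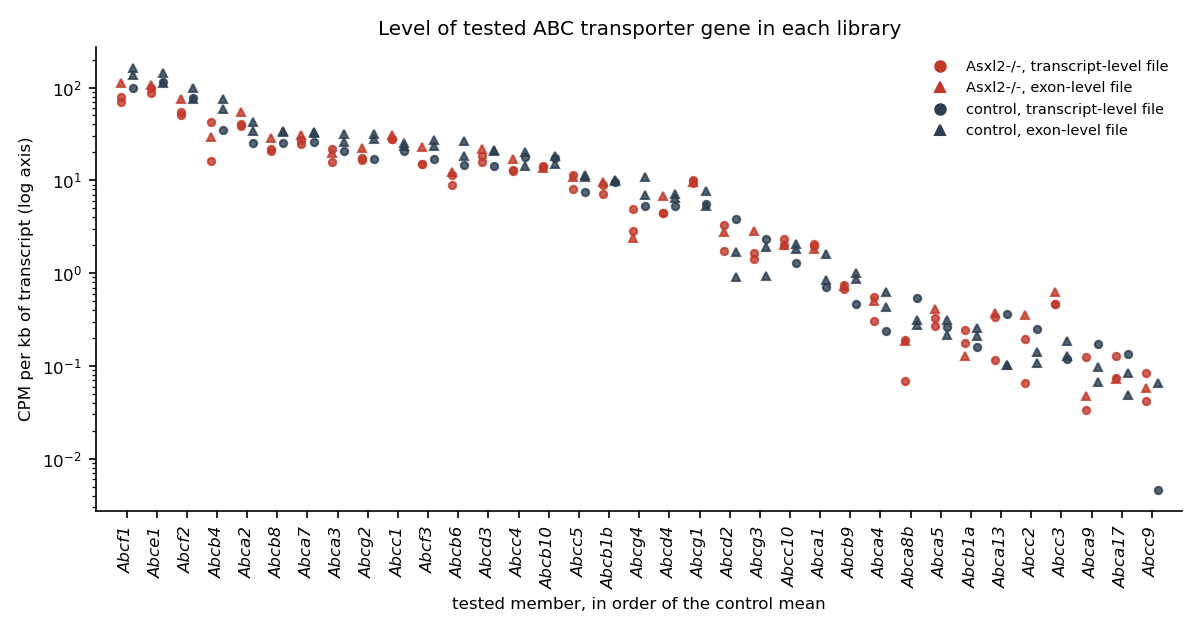
Level of the tested members in each library, with those not reported here left out, in CPM per kb of transcript on a log axis, with members ordered by their control mean; red points are Asxl2-/- and dark points control libraries, circles transcript-level and triangles exon-level files. Abcf1, Abce1 and Abcf2 stand highest, Abcg2 ranks 9th and Abcc3 34th, and Abcc9 in control replicate 3 is at 0 and is not drawn.

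In the comparison of Asxl2-/- with control cells, 1 of the 37 tested members passed the test, Abcc3, which was raised. By the quasi-likelihood test of edgeR with Benjamini-Hochberg adjustment over all genes, 2.34% of the 14145 genes tested passed, 2.04% raised and 0.304% lowered. At an unadjusted p under 0.05 there were 12 members (32.4%), 5 higher and 7 lower, against 27.7% of all genes, 15% higher and 12.6% lower. The fitted log2 fold change was positive for 16 members and negative for 21, with a median of -0.10 against 0.000523 over all genes. In both kinds of file, with no overlap between genotypes, 7 members were higher in Asxl2-/- (25.4% of all genes were) and 10 were lower (23.3% of all genes were). The 2 kinds of file gave the same sign for 25 of the 37 members (67.6%) and for 68.1% of all genes. Leaving out control replicate 1 brought 7 members past the threshold (Abca1, Abca2, Abcc1, Abcc3, Abcf1, Abcf2 and Abcg1), leaving out Asxl2-/- replicate 3 brought 1 (Abcb4, not Abcc3), and leaving out any of the other 4 libraries brought none. Over all genes, 1312 of 14060 passed without control replicate 1 and 96 of 14748 without Asxl2-/- replicate 3. Without Asxl2-/- replicate 1, 16 of 14618 genes passed, and without Asxl2-/- replicate 2, 659 of 14103. Without control replicate 2, 124 of 14871 passed, and without control replicate 3, 9 of 14140. In the reported fit 331 of 14145 passed. DESeq2 called 10 members (5 raised, 5 lowered), scaling by library size alone gave 0, and a replicate block beside file kind, which leaves 1 residual degree of freedom, gave 17 (7 raised, 10 lowered). Of all 14145 genes, DESeq2 called 2329, library size alone 161 and the block beside file kind 5179. The block without file kind gave 1 member (Abcg4, lowered, and not Abcc3) and 380 of all genes.

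**Figure D2:**
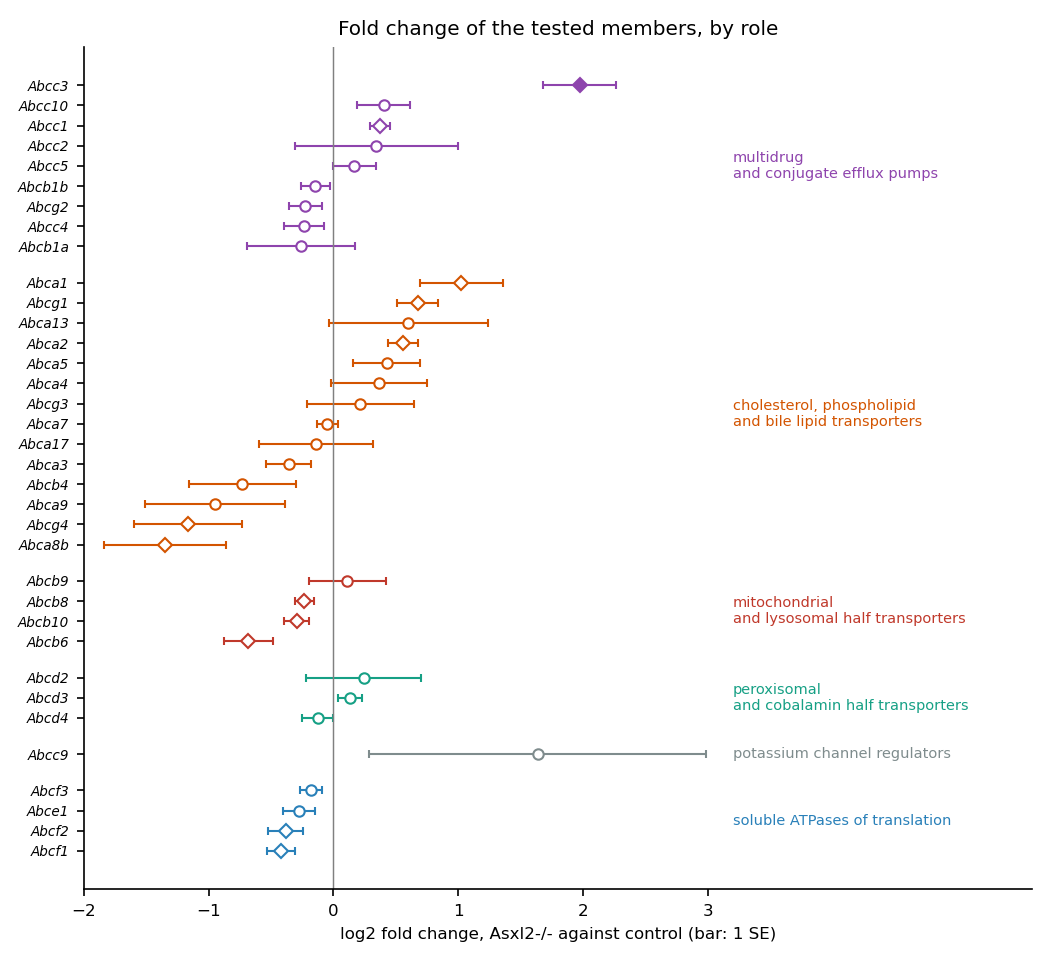
Log2 fold change of the tested members, with those not reported here left out (x axis, Asxl2-/- against control, with bars of 1 SE from the edgeR fit), grouped and coloured by role. Diamonds mark the 12 members with an unadjusted p under 0.05, and the filled diamond marks Abcc3, the member with an adjusted p under 0.05.

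Of the pumps for drugs and conjugates, 9 of 12 were tested, 1 was raised and none was lowered. Abcc3 (NM_029600, chr11:94343295-94392976 on mm10, 31 exons), which exports glucuronide conjugates and bile salts, was counted 66, 165 and 66 times in the Asxl2-/- libraries (replicates 1 to 3) and 49, 17 and 30 times in the control libraries. In CPM this was 2.34, 3.10 and 2.33 in Asxl2-/- against 0.940, 0.591 and 0.633 in control cells. All Asxl2-/- libraries were thus above all control libraries, in both kinds of file. The log2 fold change was 1.98 (SE 0.293, adjusted p = 0.0338 by edgeR), a 3.93-fold higher level, with 1.90 in the transcript-level files and 1.94 in the exon-level files alone. Exon counts for Asxl2-/- came from replicate 2 alone, where they were spread along the transcript. This library had counts in all 31 exons and at most 8.49% of its counts in any exon. Control replicates 1 and 3, with fewer counts in total, had counts in 26 and 17 exons. The number of exons covered depends on the total, and whether the rise was even along the transcript was not tested. The adjusted p of Abcc3 missed the threshold without Asxl2-/- replicate 1 (0.126), 2 (0.0808) or 3 (0.0891) and without control replicate 2 (0.0967) or 3 (0.150), and was 0.0381 without control replicate 1, while the log2 fold change stayed between 1.86 and 2.12. Abcc3 is a minor transcript here. The B-lymphoid, stem cell, megakaryocyte and endothelial marker sums described above moved in the same direction. So did 2 of the 6 neutrophil genes, Ltf and Ngp, while the other 4 had negative fold changes. The part of these marker genes in this result was not tested. In bulk RNA, more cells that carry a transcript and more transcript per cell cannot be told apart.

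Abcg2, Abcb1a and Abcb1b, the pumps behind dye efflux, did not pass the test. Abcg2 (NM_011920, chr6:58596672-58692451) stood at 43.5 and 41.3 CPM in Asxl2-/- replicates 1 and 3 against 42.6 CPM in control replicate 2, which lay between them. In the exon-level files it stood at 55.0 CPM in Asxl2-/- replicate 2, below the 69.3 and 79.4 CPM of control replicates 1 and 3. The log2 fold change was -0.22 (SE 0.129, adjusted p = 0.298 by edgeR), made of -0.01 in the transcript-level files and -0.43 in the exon-level files.

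Abcb1b (NM_011075, chr5:8798147-8866314) stood at 38.6, 41.8 and 31.1 CPM in Asxl2-/- replicates 1, 2 and 3 and at 43.2, 41.2 and 43.5 CPM in control replicates 1, 2 and 3. Every Asxl2-/- library was below the control libraries of its own kind, by little, and the log2 fold change was -0.15 (SE 0.117, adjusted p = 0.447 by edgeR). Abcb1a (NM_011076, chr5:8660092-8748570) had 34, 34 and 25 counts in Asxl2-/- and 66, 23 and 50 counts in control libraries. Its log2 fold change of -0.26 (SE 0.435, adjusted p = 0.733 by edgeR) had opposite signs in the transcript-level files (0.35) and the exon-level files (-0.81), and without Asxl2-/- replicate 2 it was 0.38. Of the P-glycoprotein pair, Abcb1b had the higher level per kb in every library.

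The exon counts of these pumps were uneven in ways shared by both genotypes. The first exon of Abcg2 (chr6:58596672-58597108, 437 bases) had 46 counts in Asxl2-/- replicate 2 and 40 and 26 in control replicates 1 and 3, or 0.105, 0.0915 and 0.0595 counts per base. Its second exon (chr6:58655638-58655856, 219 bases) had 0.932, 1.16 and 1.30 counts per base. The first exon was thus at 6.93%, 5.03% and 2.92% of the median exon of the gene in the 3 libraries. The comparison covered 5327 genes with a promoter entry, on a single chromosome, with at least 4 exons and 1000 exon counts in each library. Their median gene had its first exon at 36.2% to 38.6% of the median exon. In 4.09% of these genes, Abcg2 included, the highest of the 3 values was at or under 6.93%, the highest value of Abcg2. Of the 15 members in that comparison, the others lay between 17.9% (Abcb10) and 104% (Abca7). This first exon begins at the second of the start sites whose promoters are printed above, and the start at 58640546 lies between the first and second exon. Reads from the other starts up to the second exon fall outside the lines of the files, so which start was used was not measured.

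In Abcb1b, the most shared inner exons had lower median counts per base than those without a shared word. Of its 26 inner exons, 4 have over 90% of their bases in 50-base words found in Abcb1a or Abcb4, and these had median levels of 0.305, 0.341 and 0.274 counts per base in Asxl2-/- replicate 2 and control replicates 1 and 3. The 13 inner exons without a shared word had medians of 0.735, 0.660 and 0.626 counts per base. These were 49 to 204 bases long, against 147 to 204 bases for the shared exons, and the part of exon length was not tested. The ranges overlapped. Shared exon 15 had 0.444, 0.482 and 0.457 counts per base, and exon 21, without a shared word, had 0.412, 0.368 and 0.378. Exon 14, from which the printed stretch is taken, held 53, 51 and 45 counts in Abcb1b and 1, 2 and 0 counts in Abcb1a. The low Abcb1a counts were spread over 21, 27 and 21 of its 28 exons.

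**Figure D3:**
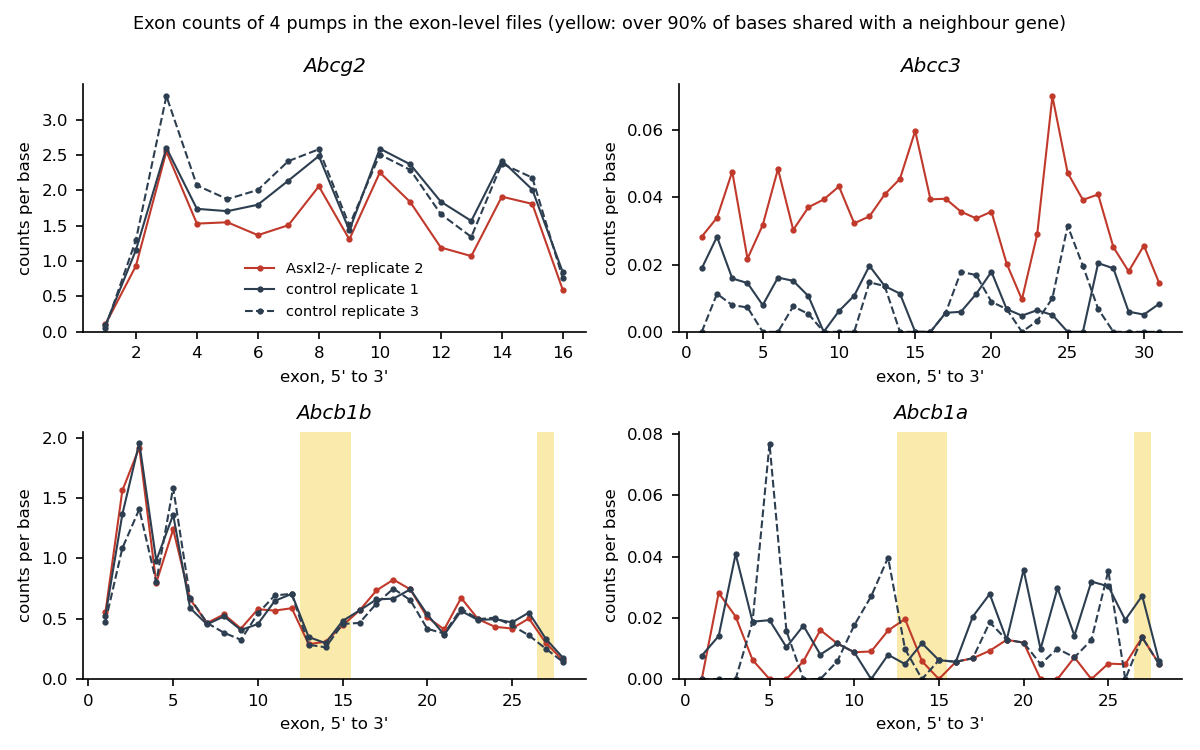
Counts per base (y axis) along the exons of Abcg2, Abcc3, Abcb1b and Abcb1a (x axis, exon number from the 5′ end) in the 3 exon-level files, with Asxl2-/- replicate 2 in red and control replicates 1 (solid) and 3 (dashed) in dark; yellow bands mark exons with over 90% of bases in words shared with a neighbour gene. The first exon of Abcg2 is at 0.0595 to 0.105 counts per base in all 3 libraries, and the Abcc3 counts of Asxl2-/- replicate 2 cover all 31 exons.

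The other conjugate pumps had smaller differences. Abcc1, which exports glutathione conjugates and leukotriene C4, stood at 166, 181 and 167 CPM in Asxl2-/- replicates 1, 2 and 3 and at 150, 124 and 140 CPM in control replicates 1, 2 and 3, with no overlap. Its log2 fold change was 0.37 (SE 0.0798, adjusted p = 0.0676 by edgeR). Abcc10, a pump of natural-product drugs, had 10.9, 10.95 and 12.8 CPM in Asxl2-/- and 11.2, 6.95 and 9.85 CPM in control libraries, and its log2 fold change of 0.41 (SE 0.211, adjusted p = 0.260 by edgeR) was 0.76 in the transcript-level files and 0.06 in the exon-level files. For Abcc4, an exporter of cyclic nucleotides and prostaglandins, the log2 fold change was -0.23 (adjusted p = 0.381 by edgeR), and for Abcc5 it was 0.17 (0.555). Abcc2, the canalicular conjugate pump of the liver, had 10 to 101 counts and opposite signs in the transcript-level files (-1.07) and exon-level files (1.45).

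**Figure D4:**
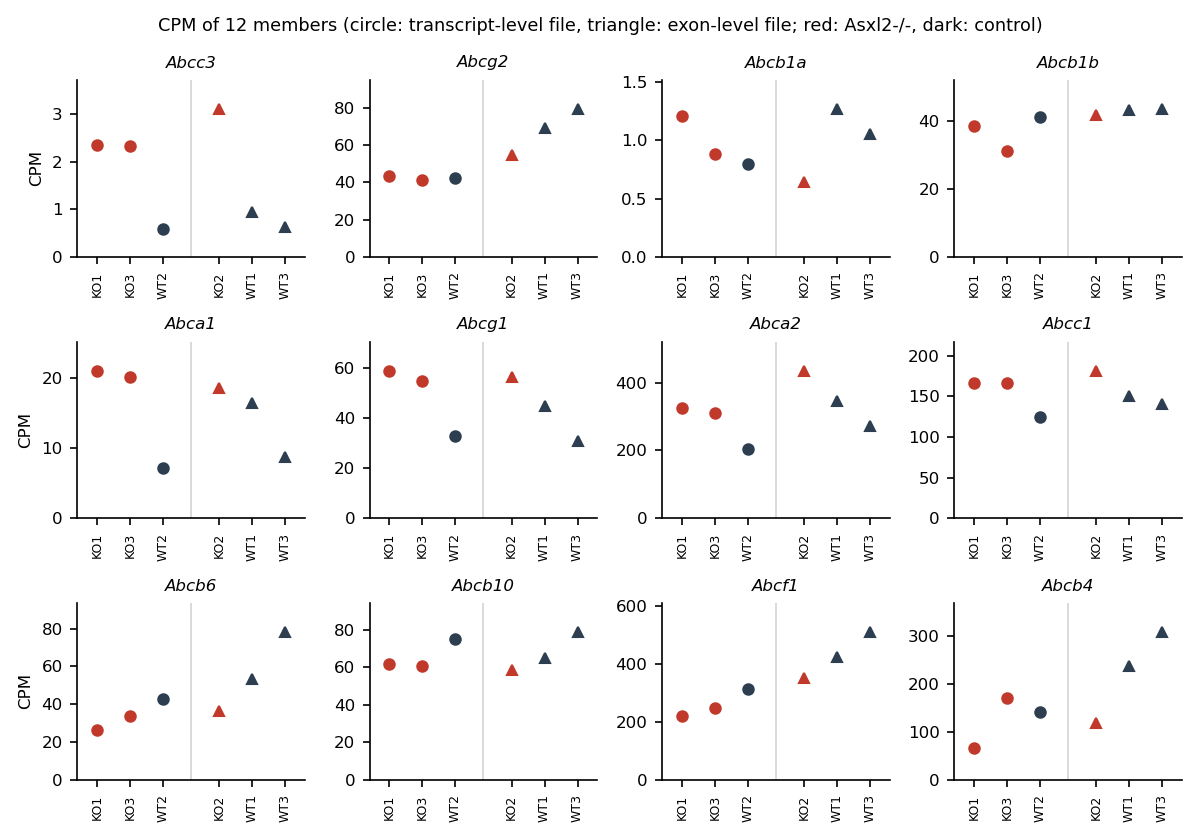
CPM of 12 members in each library (y axis from 0), with the transcript-level files left and the exon-level files right of each panel's grey line, red for Asxl2-/- and dark for control. Abcc3 is at 2.33 to 3.10 CPM in Asxl2-/- and 0.591 to 0.940 CPM in control libraries, whereas Abcg2 is at 41.3 to 43.5 CPM in all transcript-level files and at 55.0 CPM in Asxl2-/- against 69.3 and 79.4 CPM in control exon-level files.

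Of the transporters of cholesterol, phospholipids and bile lipids, 14 of 23 were tested and none passed. At an unadjusted p under 0.05, 3 were higher and 2 lower, where 15% of all genes were higher and 12.6% lower. The median log2 fold change of the group was 0.08. The 3 higher ones included the pair that exports cellular cholesterol, Abca1 to lipid-poor apolipoprotein A-I and Abcg1 to HDL particles. Abca1 stood at 21.0, 18.6 and 20.2 CPM in Asxl2-/- replicates 1, 2 and 3 and at 16.4, 7.19 and 8.73 CPM in control replicates 1, 2 and 3, so control replicate 1 lay nearest to the Asxl2-/- libraries. Its log2 fold change was 1.03 (SE 0.332, adjusted p = 0.123 by edgeR), and without control replicate 1 it was 1.33 (adjusted p = 0.0345 by edgeR). Leaving out any other single library gave 0.56 to 1.52, with an adjusted p of 0.0718 to 0.485 by edgeR. Abcg1 stood at 58.7, 56.2 and 54.5 CPM against 44.8, 32.7 and 30.9 CPM, again with no overlap. Its log2 fold change was 0.68 (SE 0.164, adjusted p = 0.0791 by edgeR), and 0.82 (0.0332) without control replicate 1. Without any other single library it was 0.57 to 0.79, with an adjusted p of 0.097 to 0.30 by edgeR.

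Abca2, the third of these, stood at 324, 434 and 310 CPM in Asxl2-/- replicates 1, 2 and 3 and at 346, 205 and 271 CPM in control replicates 1, 2 and 3, with a log2 fold change of 0.56 (SE 0.121, adjusted p = 0.0682 by edgeR). Its groups overlapped across kinds of file but not within a kind. Abca8b had 33, 61 and 12 counts in Asxl2-/- and 88, 97 and 91 counts in control libraries, with a log2 fold change of -1.35 (SE 0.489, adjusted p = 0.149 by edgeR). Abcg4, a sterol exporter related to Abcg1, was chosen after its values were seen, as the other member of this group with an unadjusted p under 0.05. It had 10.2, 8.72 and 17.8 CPM in Asxl2-/- and 25.4, 19.0 and 39.1 CPM in control libraries, a log2 fold change of -1.17 (SE 0.433, adjusted p = 0.153 by edgeR) made of -0.49 in the transcript-level and -1.85 in the exon-level files. Abcg1 and Abcg4 thus had fold changes of opposite sign.

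Abcb4, per length the most abundant lipid transporter in control cells, varied widely among the Asxl2-/- libraries. It stood at 65.7, 119 and 171 CPM in Asxl2-/- replicates 1, 2 and 3 and at 238, 142 and 308 CPM in control replicates 1, 2 and 3. Among the transcript-level files, the control library lay between the 2 Asxl2-/- libraries, and the log2 fold change was -0.73 (SE 0.426, adjusted p = 0.304 by edgeR). Without Asxl2-/- replicate 3 it was -1.19 (adjusted p = 0.0495 by edgeR). Leaving out any other single library gave -1.19 to -0.26, with an adjusted p of 0.34 to 0.75 by edgeR. Abca3, which loads surfactant lipid in the lung, had a log2 fold change of -0.36 (adjusted p = 0.241 by edgeR), and Abca7, a phospholipid transporter, of -0.05 (0.733), whose sign turned when libraries were scaled by size alone.

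Genes that work with the sterol exporters were taken from a list of 15 genes, of which 14 were tested. 2 of them were raised, where 2.04% of all genes were, and none was lowered. Rxra, the nuclear receptor partner of the liver X receptors that drive Abca1 and Abcg1, stood at 30.1, 24.0 and 24.5 CPM in Asxl2-/- replicates 1, 2 and 3 and at 7.87, 7.09 and 4.51 CPM in control replicates 1, 2 and 3, a log2 fold change of 1.95 (SE 0.237, adjusted p = 0.0234 by edgeR). Apoe, an apolipoprotein that accepts cellular cholesterol, stood at 245, 355 and 279 CPM against 213, 90.3 and 136 CPM, a log2 fold change of 1.28 (SE 0.216, adjusted p = 0.0461 by edgeR). For both, every Asxl2-/- library was above every control library. Mylip, a ubiquitin ligase for the LDL receptor, had a log2 fold change of 0.63 (adjusted p = 0.0928 by edgeR), and Nr1h2, a liver X receptor itself, of -0.22 (0.144). The median over the 14 was -0.08, and 0.02 when libraries were scaled by size alone.

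The adjusted p of Rxra missed the threshold without Asxl2-/- replicate 1 (0.0929) or 3 (0.0587) and without control replicate 2 (0.0603) or 3 (0.0995). That of Apoe missed it without Asxl2-/- replicate 1 (0.149) or 3 (0.0976) and without control replicate 2 (0.164) or 3 (0.156), and also with median-ratio scaling (0.0503), library size alone (0.0667), no term for file kind (0.113) and only the longest exon (0.0520).

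The dimer-forming transporters of mitochondria and lysosomes were all tested, 5 of 5, and none passed. Abcb6, Abcb8 and Abcb10 had an unadjusted p under 0.05, all with negative fold changes. Each was lower in Asxl2-/- than in control libraries within both kinds of file. Of all genes, 12.6% were lower at that threshold and 23.3% were lower within both kinds of file with no overlap. Abcb6, which carries porphyrins, stood at 26.2, 36.3 and 33.6 CPM in Asxl2-/- replicates 1, 2 and 3 and at 53.4, 42.4 and 77.9 CPM in control replicates 1, 2 and 3. Its log2 fold change was -0.68 (SE 0.197, adjusted p = 0.104 by edgeR). Abcb10, an inner-membrane transporter needed for heme synthesis in red cell precursors, stood at 61.5, 58.5 and 60.4 CPM against 65.1, 74.8 and 78.5 CPM, with a log2 fold change of -0.29 (SE 0.0995, adjusted p = 0.132 by edgeR). Abcb8, an inner-membrane transporter, stood at 60.5, 83.5 and 64.3 CPM against 96.3, 73.8 and 99.0 CPM, with -0.23 (SE 0.0762, adjusted p = 0.123 by edgeR). Abcb9, a peptide transporter of lysosomes, had a log2 fold change of 0.11 (adjusted p = 0.843 by edgeR).

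Of 13 tested genes on the list of heme and iron-sulfur partners, none passed, 11 had negative fold changes (8 when libraries were scaled by size alone) and 7 of these an unadjusted p under 0.05, where 12.6% of all genes were lower at that threshold. The median log2 fold change was -0.24. Tmem14c, which moves protoporphyrinogen into mitochondria, stood at 101, 146 and 104 CPM in Asxl2-/- replicates 1, 2 and 3 and at 192, 176 and 258 CPM in control replicates 1, 2 and 3, a log2 fold change of -0.70 (SE 0.131, adjusted p = 0.0541 by edgeR). Slc25a38, the mitochondrial glycine carrier that feeds heme synthesis, stood at 27.4, 32.1 and 35.9 CPM against 48.7, 52.0 and 62.7 CPM, a log2 fold change of -0.76 (SE 0.155, adjusted p = 0.0646 by edgeR). No library overlapped between genotypes for either gene. The erythroid marker list, with 5 of 7 genes lower at an unadjusted p under 0.05 and sums of 481 to 683 CPM in Asxl2-/- against 920 to 1335 CPM in control libraries, moved in the same direction as Abcb6, Abcb10 and these partners, and its part in their values was not tested.

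The 4 soluble ATPases of translation were tested, none passed, and all had negative fold changes with a median of -0.33. All were also negative with median-ratio scaling, with DESeq2, which scales by median ratios too, and with library size alone. Abcf1, which acts in translation initiation, stood at 220, 351 and 250 CPM in Asxl2-/- replicates 1, 2 and 3 and at 425, 315 and 510 CPM in control replicates 1, 2 and 3, a log2 fold change of -0.42 (SE 0.110, adjusted p = 0.0895 by edgeR). Abcf2 had -0.38 (SE 0.140, adjusted p = 0.151 by edgeR), with Asxl2-/- replicate 2 at 195.1 CPM beside 194.8 CPM in control replicate 1. Abce1, which splits ribosomes after termination, stood at 329, 406 and 375 CPM against 424, 433 and 544 CPM, with -0.28 (SE 0.126, adjusted p = 0.214 by edgeR). Abcf3 had -0.18 (adjusted p = 0.249 by edgeR). Of 14 tested partners in translation, none passed and 10 were lower in Asxl2-/- within both kinds of file, where 23.3% of all genes were. Nubp1 and Nubp2, scaffold proteins for the assembly of cytosolic iron-sulfur clusters such as those of Abce1, had log2 fold changes of -0.46 (SE 0.120, adjusted p = 0.0875 by edgeR) and -0.58 (SE 0.119, adjusted p = 0.0653 by edgeR).

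The peroxisomal and cobalamin transporters were all tested, 4 of 4, and none had an unadjusted p under 0.05. Abcd2, a transporter of very-long-chain fatty acids, had a log2 fold change of 0.25 (adjusted p = 0.764 by edgeR), with opposite signs in the transcript-level (-0.69) and exon-level files (1.17), while Abcd3, a transporter of branched-chain fatty acids, had 0.13 (0.407) and Abcd4, which acts in lysosomal cobalamin export, -0.12 (0.548). Of 14 tested peroxisome partners none passed. Cat, catalase, had a log2 fold change of 0.22 (SE 0.0735, adjusted p = 0.128 by edgeR).

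Of the sulfonylurea receptors, which regulate potassium channels, Abcc9 was tested and had 18, 23 and 9 counts in Asxl2-/- against 26, 1 and 0 counts in control libraries (adjusted p = 0.459 by edgeR). Neither channel partner on the list passed the filter on low counts. The glutathione and xenobiotic list had 18 tested genes, with 1 raised (2.04% of all genes were) and none lowered. Gstt1, a glutathione transferase, stood at 4.12, 4.13 and 4.16 CPM in Asxl2-/- replicates 1, 2 and 3 and at 1.86, 1.15 and 1.35 CPM in control replicates 1, 2 and 3, a log2 fold change of 1.59 (SE 0.263, adjusted p = 0.0440 by edgeR). Its adjusted p missed the threshold without Asxl2-/- replicate 1 (0.157), 2 (0.0564) or 3 (0.0991) and without control replicate 2 (0.141) or 3 (0.180), and also with library size alone (0.0631) and only the longest exon (0.0679). Gstp1, another transferase, had -0.33 (SE 0.0813, adjusted p = 0.0822 by edgeR), and Keap1, the repressor of the oxidative stress factor Nrf2, had -0.33 (SE 0.0997, adjusted p = 0.111 by edgeR).

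Among ABC genes that carry other symbols, the antigen peptide transporters Tap1 and Tap2 were tested and did not pass. Tap1 stood at 293, 380 and 369 CPM in Asxl2-/- replicates 1, 2 and 3 and at 345, 539 and 452 CPM in control replicates 1, 2 and 3, a log2 fold change of -0.39 (SE 0.190, adjusted p = 0.239 by edgeR), and Tap2 had -0.26 (SE 0.0985, adjusted p = 0.159 by edgeR). All 9 tested genes of peptide loading had negative fold changes, also with DESeq2, median-ratio scaling and library size alone. None was separated in both kinds of file. Tapbp, which bridges the transporter and class I molecules, had -0.66 (SE 0.236, adjusted p = 0.147 by edgeR), and its relative Tapbpl -0.84 (SE 0.327, adjusted p = 0.164 by edgeR). For Tapbpl the transcript-level files gave -1.47 and the exon-level files -0.17. Cftr, the chloride channel of the family, had at most 8 counts in a library and was not tested.

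Several weakly expressed members differed between libraries more than between genotypes. Abca13 stood at 5.39, 5.96 and 1.83 CPM in Asxl2-/- replicates 1, 2 and 3 and at 1.65, 5.77 and 1.62 CPM in control replicates 1, 2 and 3, so each genotype held both high and low libraries. Its difference came to -0.86 in the transcript-level files and 1.83 in the exon-level files, and Abcg3 (-0.61 and 1.10) likewise had opposite signs in the 2 kinds.

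**Figure D5:**
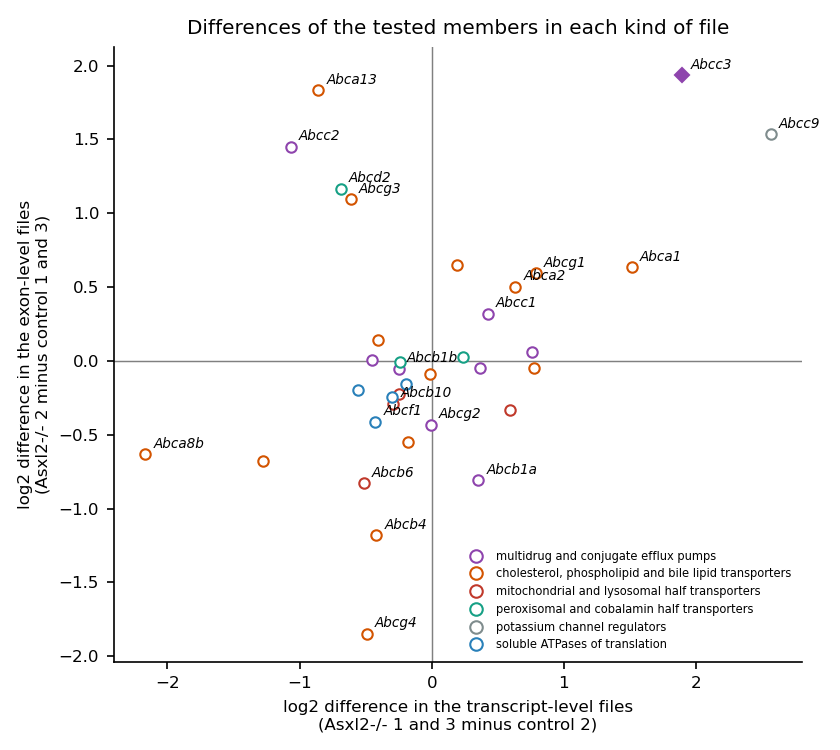
Log2 difference between Asxl2-/- and control in the transcript-level files (x axis) and in the exon-level files (y axis) for the tested members, with those not reported here left out, coloured by role, with the filled diamond for Abcc3. Abcc3 lies at 1.90 and 1.94, Abca13, Abcc2, Abcd2 and Abcg3 have opposite signs in the 2 kinds, and 25 of all 37 tested members have the same sign in both.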

How the data were processed

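RNA was sequenced from sorted LSK cells with the Illumina TruSeq RNA kit. The authors deposited raw counts of reads, as whole numbers per RefSeq transcript (3 libraries) or per exon (3 libraries), without pooling. The submitters' processing notes name STAR, featureCounts, DESeq2 and the mm10 build, with no versions or roles. The study's methods describe unstranded libraries, so reads from a gene and an antisense partner cannot be told apart.

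Each symbol was represented by its longest transcript, exon counts were summed, and counts were tested with edgeR 4.0.16 in R 4.3.3 (TMM scaling, filterByExpr, quasi-likelihood test, terms for file kind and genotype, 3 residual degrees of freedom, two-sided p adjusted by Benjamini-Hochberg, threshold 0.05). CPM values use TMM-scaled library sizes, and CPM per kb divides them by transcript length. SDs of levels cover both kinds of file. SEs were derived from the fold change and its F statistic. Fold changes within 1 kind of file use 3 libraries and carry no test. The study's methods call the libraries of a group biological replicates, the labels tie none to an animal, and p-values measure the spread between these libraries. Limits from counts cover counting error only.

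Library totals were 25528540 to 29136012 counts in transcript-level files and 53147729 to 55032075 in exon-level files. Replicate numbers are shared between the groups. Deviations of same-numbered libraries, which always differ in file kind, correlated at 0.294, -0.00766 and -0.00277. With file kind removed, replicates 1 and 3 gave 0.635 and 0.388, against 0.143 from the fit alone, and -0.052 and 0.173 with their numbers exchanged, while the value of replicate 2 is fixed at 1. The numbers were not taken as pairs, since no source ties them to a shared batch or litter and the check could be made in 2 of the 3 pairs. The replicate block is given as an alternative.

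The members and gene lists were chosen with earlier results of these data known. Named were Abcg2, Abcb1a and Abcb1b, members past the threshold, the 5 higher and 5 lower others with the smallest p, the 5 with the highest control level per kb, and, per partner list, genes past the threshold and up to 2 others with the smallest p. Other members are given by values only. Some genes that the rule or the family holds are not reported here by name; the counts over lists include them. Transcript sequences came from GENCODE M1, used for sequence alone, and promoters from RefSeq's GRCm38.p6, with entries for 38 of the 50 members. Alternatives were DESeq2 1.42.0, limma-voom (limma 3.58.1), scaling by median ratios or by library size alone, testing without a filter or with a minimum of 10 counts per library, no term for file kind, a replicate block, the transcript with the most counts, only the longest exon (in the exon-level files, with the transcript-level files unchanged), 1 kind of file at a time, and dropping libraries singly.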

Additional observations from a re-analysis of the deposited data

How the results depend on the processing

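The count of ABC transporter genes past the threshold was 1 in the reported fit and also with limma-voom, median-ratio scaling, without a filter, with a minimum of 10 counts per library, without a term for file kind and the transcript with the most counts. It was 10 with DESeq2 (5 raised, 5 lowered), 0 with library size only and 0 with only the longest exon counted, where 32 members were tested. The longest-exon setting changed the exon-level files alone and kept whole-transcript counts in the transcript-level files. The partner genes past the threshold numbered 3 in the reported fit, 18 with DESeq2, 2 with median-ratio scaling (Apoe missed), 1 with library size only and 1 with the longest exon. Over all genes, the called count was 331 in the reported fit, 2329 with DESeq2 and 161 with library size only. Leaving out single libraries gave 0 to 7 members, 0 to 12 partners and 9 to 1312 of all genes. Where the cause of these shifts is not the smaller number of samples or genes, the cause was not tested.

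With the replicate number as a replicate block beside file kind, which leaves 1 residual degree of freedom, 17 members (7 raised, 10 lowered), 43 partners and 5179 of all genes passed. With the replicate block and no file kind, 1 member (Abcg4, lowered; Abcc3 had an adjusted p of 0.0546) and 1 partner (Rxra) passed. Apoe and Gstt1 missed the threshold there (adjusted p = 0.155 and 0.0598).

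The fold change reversed for Abcg2 with the longest exon (0.10), which for this gene is the thinly covered first exon, and for Abcb1a with the longest exon (0.13) and without Asxl2-/- replicate 2 (0.38; range over single libraries left out -0.86 to 0.38). Neither gene passed the threshold under any setting. Abcc3 also missed it with library size only (adjusted p = 0.0543) and with the longest exon (0.139), and its log2 fold change lay between 1.83 and 2.12 throughout. Of the 305 tested values of the 18 named members under the alternatives, 263 kept their direction and side of the threshold. Abcb1a, Abca8b and Abcc3 rest on under 200 counts in every library, which limits their precision.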
